A study of Mus musculus with 24 samples.

Results

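The Hox cluster genes were followed through the blood-forming cells of the mouse aorta at E10.5, mid-gestation. All protein-coding genes named Hoxa, Hoxb, Hoxc or Hoxd with a number were taken, 38 of the 29716 genes in the deposited count table. They comprise 11 Hoxa, 10 Hoxb, 8 Hoxc and 9 Hoxd genes. Members were picked by name and not by measured values, though with earlier results of these data known. The 24 libraries fall into 6 groups of 4, from 3 sorted populations and 2 antibodies. The populations were CD31+ Kit+ CD45+, CD31+ Kit+ CD45- and CD31+ Kit- CD41+ CD45- cells. CD31 is carried by endothelium and by cells newly released from it, Kit and CD41 mark cells entering the blood lineage, and CD45 marks committed blood cells. C57BL/6J embryos received an intracardiac injection of an antibody against the Notch ligand Dll4, or of an anti-human IgG as its control. All were then kept for 5 h at 37 °C under 5% CO2 in myeloid long-term medium with 10 ng/ml IL-3 and 10 µM hydrocortisone, with the same antibody at 5 µg/ml, before 0.1% collagenase and sorting, so that the IgG groups shared the injection, the culture and the cytokine. The labels name no transgene or mutation, and the number of embryos behind each library is not given in the sources used here, and p-values reflect only how libraries of a group vary, which may be technical. The study asked what blocking Dll4 does in these 3 populations.

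Hox genes encode homeodomain transcription factors that give cells their position along the body axis. In the mouse they lie in 4 clusters, and within a cluster the genes at one end (low paralogue numbers) are expressed earlier and further forward than those at the other end. Hox proteins bind DNA together with TALE homeodomain partners of the PBX and MEIS families. In blood, genes of the Hoxa and Hoxb clusters are the best known: Hoxa9 and Hoxb4 promote self-renewal of haematopoietic stem and progenitor cells.

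Positions are on mm10, on which the Hoxa cluster lies on chromosome 6 on the minus strand (Hoxa2 at chr6:52162417-52164831, Hoxa13 at chr6:52257694-52260880). The other 3 clusters lie on plus strands: Hoxb on chromosome 11 (Hoxb13 at chr11:96194316-96197447, Hoxb1 at chr11:96365752-96368256), Hoxc on chromosome 15 (Hoxc13 at chr15:102921103-102928814, Hoxc4 at chr15:103018934-103036852) and Hoxd on chromosome 2 (Hoxd13 at chr2:74668310-74671599, Hoxd1 at chr2:74762980-74765142). Values are whole-gene counts, so exons, introns and UTRs within a gene are not told apart. Some members share exon sequence with other genes. Hoxd3 shares 62.8% and Hoxd4 52.3% of its exonic length, with each other among others, Hoxb3 52.9% and Hoxb2 27.3% with the antisense gene Hoxb3os, Hoxa11 35% with Hoxa11os, and Hoxa3 27.1% and Hoxa7 20.4% with noncoding neighbours. The strand setting of the counting is not given in the sources used here, and Hoxd3 and Hoxd4 share exons on the same strand, which no strand setting separates. Whether a shared read was counted to the member, to its partner or to neither was not checked. The levels of these members may therefore be too high or too low.

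Library totals were 8718351 to 11379830 counts, with 18063 to 21093 genes detected. The globin genes took 4.17 to 49.3% of the counts in the Kit+ CD45- and Kit- CD41+ CD45- libraries, and at most 0.0226% in the Kit+ CD45+ libraries. Among the surface markers used for sorting, Kit, CD45 and CD41 followed the labels at the RNA level. Kit averaged 64.2 ± 11.8 and 60.8 ± 16.9 CPM in Kit+ CD45+ cells (anti-Dll4 and IgG; SD, n = 4 each), 33.6 ± 11.7 and 37.9 ± 4.72 CPM in Kit+ CD45- cells, and 1.87 ± 0.813 and 3.84 ± 1.47 CPM in Kit- CD41+ CD45- cells. Ptprc, which encodes CD45, averaged 79.1 ± 21.6 and 82.3 ± 33 CPM in Kit+ CD45+ cells and at most 0.811 ± 0.785 CPM elsewhere, and Itga2b, which encodes CD41, was highest in Kit- CD41+ CD45- cells (427 ± 122 CPM under anti-Dll4 and 539.8 ± 162 CPM under IgG). Markers of other cell types also separated the 3 populations, and their values stand beside the Hox results. Levels below are counts scaled to library size with TMM factors (CPM), and CPM per kilobase of exon where genes are compared with each other. A gene is called changed at a Benjamini-Hochberg adjusted p below 0.05 over the 15618 genes that passed the filter on low counts, in edgeR's quasi-likelihood test. Of the 38 members, 28 passed that filter. The other 10, Hoxa6, Hoxa13, Hoxb13, Hoxc11, Hoxc13, Hoxd1, Hoxd3, Hoxd4, Hoxd12 and Hoxd13, were too low to test; the group mean of Hoxd1 reached 1.05 ± 1.78 CPM (SD, n = 4) in Kit- CD41+ CD45- IgG libraries, and no group mean of the other 9 reached 1 CPM.

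Per kilobase, a small set of members of the Hoxa and Hoxb clusters stood highest. In Kit+ CD45+ cells treated with anti-Dll4, Hoxa5 led with 13.3 ± 4.38 CPM per kb (SD, n = 4), followed by Hoxb5 at 10.7 ± 2.1, Hoxb2 at 10.6 ± 2.36 and Hoxa9 at 8.48 ± 2.71. The IgG-treated Kit+ CD45+ cells held the same 4 genes on top, with Hoxa5 at 11.3 ± 4.21, Hoxb2 at 10.9 ± 2.29, Hoxb5 at 10.49 ± 2.73 and Hoxa9 at 7.7 ± 4.86 CPM per kb. The SDs of Hoxa5, Hoxb5 and Hoxb2 overlapped in both groups, so their order among themselves is not resolved. In Kit+ CD45- cells Hoxb2 led, with 6.3 ± 2.02 CPM per kb under anti-Dll4 and 10.6 ± 3.52 under IgG. Hoxa5 (4.8 ± 2.82 under anti-Dll4 and 7.53 ± 3.46 under IgG) and Hoxb5 (4.33 ± 1.36 and 6.99 ± 2.32) came next. Hoxb2 also led in Kit- CD41+ CD45- cells, with 4.63 ± 0.636 CPM per kb under anti-Dll4 and 5.0 ± 1.55 under IgG. There a Hoxc gene, Hoxc6, stood among the top 3 of both antibody groups, at 2.8 ± 1.69 CPM per kb under anti-Dll4 and 2.92 ± 1.34 under IgG. The levels of Hoxb2 include any reads of Hoxb3os that were counted to it, and lack any shared reads that were counted to neither gene.

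**Figure D1:**
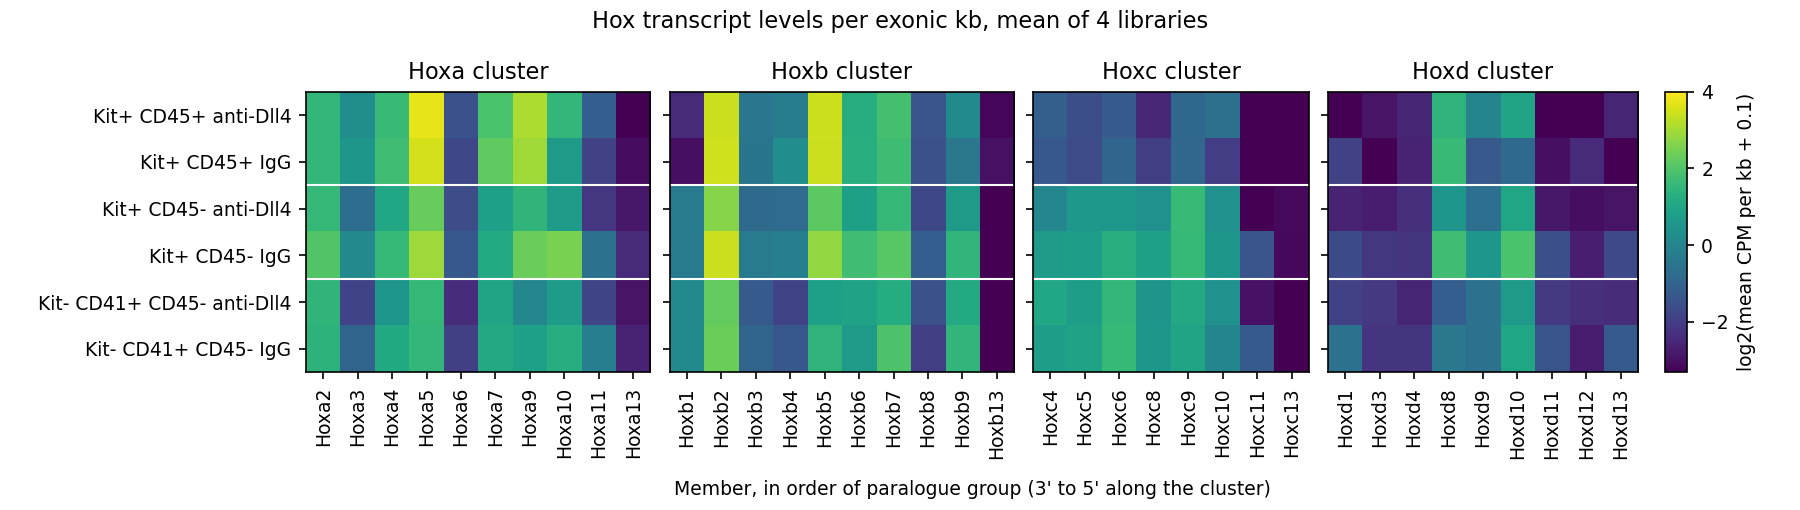
Heat map of the mean level of Hox genes in the 6 groups: each panel is a cluster, with its genes in paralogue order along the x axis, the groups down the y axis, and colour for log2(mean CPM per kilobase of exon + 0.1) over 4 libraries. Hoxa5, Hoxb2, Hoxb5 and Hoxa9 are brightest in Kit+ CD45+ cells, while the Hoxc genes are darker in Kit+ CD45+ cells than in the other populations.

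The clusters took different shares of the summed Hox signal in the 3 populations. The Hoxc cluster gave 3.06, 3.25, 1.03 and 1.55% of all Hox CPM in the Kit+ CD45+ anti-Dll4 libraries and 3.24, 2.76, 1.05 and 0.516% in the Kit+ CD45+ IgG libraries. It gave 16.8, 23, 12.5 and 19.3% in Kit+ CD45- cells under anti-Dll4 and 15.1, 11.3, 14.1 and 8.68% under IgG, and 20.1, 28, 30.3 and 26.2% in Kit- CD41+ CD45- cells under anti-Dll4 and 17.3, 18.6, 24.2 and 25.7% under IgG. Every Kit+ CD45+ library thus lay below every library of the other populations. The Hoxa share ran the other way: 54 ± 2.17% and 54.2 ± 6.58% in Kit+ CD45+ cells (anti-Dll4 and IgG; SD, n = 4 each), 35.5 ± 6.58% and 41.1 ± 3.15% in Kit+ CD45- cells, and 30.2 ± 3.01% and 33.7 ± 2.51% in Kit- CD41+ CD45- cells. Hoxb genes gave 38 ± 1.99% and 39.3 ± 5.11%, 40 ± 8.2% and 38 ± 4.48%, and 37 ± 2.71% and 36.6 ± 5.65% in the same order of groups. The Hoxd share averaged between 4.65 ± 1.94% in Kit+ CD45+ IgG libraries and 8.59 ± 3.55% in Kit+ CD45- IgG libraries.

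By position, paralogue groups 1 to 5 had the largest mean share of the signal per kilobase, though not most of it in Kit- CD41+ CD45- cells. Their share was 62.5 ± 4.75% and 66.3 ± 10.6% in Kit+ CD45+ cells (anti-Dll4 and IgG; SD, n = 4 each), 53.8 ± 6.16% and 52.4 ± 6.46% in Kit+ CD45- cells, and 48.4 ± 2.62% and 44.9 ± 6.3% in Kit- CD41+ CD45- cells. Paralogue groups 6 to 9 gave 30.3 ± 2.67% and 30.4 ± 10.3%, 37.2 ± 3.6% and 34 ± 5.19%, and 40 ± 5.09% and 40.8 ± 5.47% in the same order. They held more than groups 1 to 5 in Kit- CD41+ CD45- IgG replicates 1 (46.9 against 38.1%) and 4 (43.8 against 41.7%), and as much in anti-Dll4 replicate 3 (45.8%). Groups 10 to 13, the posterior end, gave 7.17 ± 2.3% and 3.28 ± 0.599%, 8.92 ± 6.08% and 13.6 ± 3.92%, and 11.6 ± 4.27% and 14.3 ± 2.89% in those groups. Hoxa10 was the highest posterior member in Kit+ CD45- IgG libraries, with 5.64 ± 3.89 CPM per kb (SD, n = 4), followed by Hoxd10 with 3.69 ± 2.97, whereas Hoxa13, Hoxb13 and Hoxc13 stayed at 6 counts or fewer in every library. These shares are descriptions, without a test, and depend on where the paralogue groups are divided.

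**Figure D2:**
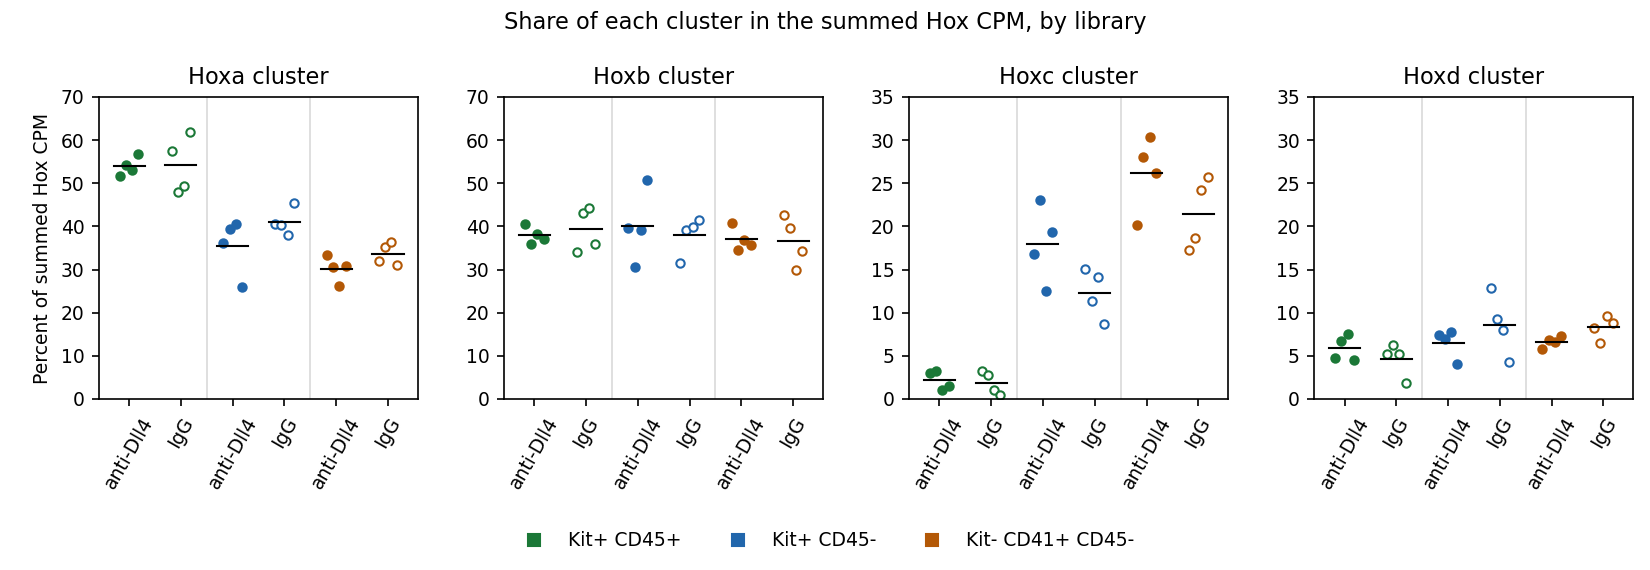
Share of the summed Hox CPM taken by each of the 4 clusters: each point is a library, filled for anti-Dll4 and open for IgG, and each bar is the mean of a group of 4. The Hoxc share of the Kit+ CD45+ libraries lies below that of every other library, and the Hoxa share is highest there.

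The largest number of Hox genes separated Kit+ CD45+ cells, the CD45-bearing end of the series, from Kit- CD41+ CD45- cells. Under anti-Dll4, 9 members were higher and 7 lower of the 28 tested, while 37.6% of all genes tested were called (20.4% higher, 17.3% lower). Under IgG, 9 were higher and 9 lower of the 28, with 37.2% of all genes called (19.7% higher, 17.5% lower). Both member counts are larger shares than those of all genes tested. The libraries of the 2 antibody groups are disjoint, and 15 genes were called in the same direction in both. Hoxa3, Hoxa5, Hoxa9, Hoxb2, Hoxb4, Hoxb5 and Hoxd8 were among those higher. Hoxb1, Hoxc4, Hoxc5, Hoxc6, Hoxc8, Hoxc9 and Hoxd11 were lower. Under anti-Dll4, 9 members lay above without any overlap of the 2 groups and 5 below (19.5% and 17.6% of all genes tested), and under IgG 7 above and 7 below (19.4% and 19%). The 15 shared genes are 93.8% of the anti-Dll4 list and 83.3% of the IgG list, and no member was called in opposite directions. The share of all genes called under both antibodies was not taken. These percentages, and those of the other pairs below, therefore do not show whether Hox genes were shared more than other genes. The higher genes came from the Hoxa, Hoxb and Hoxd clusters, and none from Hoxc. With the globin level as a covariate, an alternative chosen after seeing the data, no member was called in any comparison with Kit+ CD45+ cells; that level separates the Kit+ CD45+ libraries from all others, so it and the population cannot be told apart. In sorted bulk samples, fewer cells of a type and less RNA per cell cannot be told apart.

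Hoxa9, a regulator of haematopoietic progenitor growth, had 36.8, 35.8, 48.4 and 68.3 CPM in Kit+ CD45+ anti-Dll4 libraries, against 5.32, 5.44, 4.49 and 6.0 CPM in Kit- CD41+ CD45- anti-Dll4 libraries. Under IgG it had 80.8, 16.4, 39.2 and 35.3 CPM in Kit+ CD45+ cells and 9.5, 8.94, 10.2 and 9.99 CPM in Kit- CD41+ CD45- cells. All 4 Kit+ CD45+ libraries lay above all 4 Kit- CD41+ CD45- libraries under each antibody, with log2 fold changes of 3.15 ± 0.47 (SE, adjusted p = 9.56e-06) under anti-Dll4 and 2.15 ± 0.44 (adjusted p = 4.61e-04) under IgG. Hoxa5, a middle member of its cluster with roles in axial patterning and lung, had 18.3, 26.4, 19 and 35.9 CPM in Kit+ CD45+ cells and 3.21, 7.15, 5.33 and 5.56 CPM in Kit- CD41+ CD45- cells under anti-Dll4. The IgG values were 11, 26.9, 28 and 19.3 CPM in Kit+ CD45+ cells and 3.68, 7.7, 5.51 and 4.11 CPM in Kit- CD41+ CD45- cells. Again the groups did not overlap, and the changes were 2.23 ± 0.43 (SE, adjusted p = 2.44e-04) under anti-Dll4 and 2.02 ± 0.43 (adjusted p = 6.34e-04) under IgG. Its neighbour by number in the Hoxb cluster, Hoxb5, which marks long-term haematopoietic stem cells in adult mouse marrow, had 27.7, 25.6, 27.8 and 38.5 CPM in Kit+ CD45+ cells, against 2.91, 6.45, 6.68 and 2.67 CPM in Kit- CD41+ CD45- cells under anti-Dll4. It had 30.3, 28.8, 38.2 and 19.6 CPM in Kit+ CD45+ cells and 4.45, 11.4, 4.81 and 8.21 CPM in Kit- CD41+ CD45- cells under IgG. Hoxb5 did not overlap either and rose by 2.67 ± 0.35 (SE, adjusted p = 1.95e-06) and 2.02 ± 0.34 (adjusted p = 4.98e-05) on the log2 scale.

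Hoxa3 was higher as well. For this gene, needed for thymus and pharyngeal arch formation, Kit+ CD45+ cells held 5.96, 12.2, 2.24 and 6.6 CPM and Kit- CD41+ CD45- cells 0.402, 1.71, 1.46 and 0.667 CPM under anti-Dll4. Under IgG they held 6.59, 10.1, 9.29 and 6.9 CPM in Kit+ CD45+ cells and 1.2, 4.78, 3.41 and 0.666 CPM in Kit- CD41+ CD45- cells. The groups were apart under both antibodies (2.66 ± 0.60, SE, adjusted p = 0.00108 under anti-Dll4; 1.70 ± 0.56, adjusted p = 0.0188 under IgG), but the IgG call was lost without Kit- CD41+ CD45- IgG replicates 1 or 4 (1.46 and 1.39). Hoxa4 and Hoxa7 were called under 1 antibody only, and no member passed the test of an anti-Dll4 effect that differs between populations. Hoxa4 (4.71 ± 0.523 CPM in Kit+ CD45+ cells and 2.12 ± 0.541 CPM in Kit- CD41+ CD45- cells, SD, n = 4 each) rose under anti-Dll4 by 1.15 ± 0.41 (adjusted p = 0.0315), a call lost without Kit- CD41+ CD45- anti-Dll4 replicates 1 or 2 (1.03 and 1.06) or Kit+ CD45+ anti-Dll4 replicates 1 or 4 (1.13 and 1.08), or with no filter on low counts (1.09). Hoxa7 (13.1 ± 6.2 CPM in Kit+ CD45+ cells, against 5.91 ± 2.68 CPM) rose under IgG by 1.15 ± 0.44 (adjusted p = 0.0439), a call lost without Kit- CD41+ CD45- IgG replicates 1, 3 or 4 (0.86, 1.21 and 1.21) or Kit+ CD45+ IgG replicates 1 or 3 (0.76 and 1.22), or with globin genes left out (1.11), with no filter on low counts (1.10) or with only the groups compared (1.13).

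Of the Hoxb and Hoxd genes, Hoxb2, a hindbrain and limb patterning gene, had 33.3, 32.6, 33.2 and 49.5 CPM in Kit+ CD45+ cells and 16.5, 19.1, 14.7 and 14.2 CPM in Kit- CD41+ CD45- cells under anti-Dll4. It had 36.9, 37.3, 48.7 and 29.3 CPM in Kit+ CD45+ cells, against 11.4, 21.9, 22.1 and 14.3 CPM in Kit- CD41+ CD45- cells under IgG. The groups were separate under both antibodies, with log2 fold changes of 1.20 ± 0.26 (SE, adjusted p = 8.63e-04) and 1.13 ± 0.26 (adjusted p = 0.00154). Hoxb3os, with which Hoxb2 shares exon sequence, rose as well (1.22 ± 0.26, adjusted p = 5.81e-04 under anti-Dll4; 0.96 ± 0.25, adjusted p = 0.00441 under IgG), and the part of its reads in the Hoxb2 value was not tested. Hoxb4, known for expanding haematopoietic stem cells when overexpressed, was low but higher in Kit+ CD45+ cells. It had 1.58, 2.09, 1.72 and 2.32 CPM there and 0.10, 0.403, 0.627 and 0.778 CPM in Kit- CD41+ CD45- cells under anti-Dll4, and 3.86, 3.41, 2.74 and 1.43 CPM in Kit+ CD45+ cells against 0.171, 1.51, 0.601 and 0.777 CPM in Kit- CD41+ CD45- cells under IgG. The Hoxb4 changes were 2.00 ± 0.59 (SE, adjusted p = 0.00944) under anti-Dll4, without overlap, and 1.89 ± 0.56 (adjusted p = 0.0102) under IgG, with overlap. Hoxd8 was the one Hoxd gene called higher. Kit+ CD45+ cells had 3.73, 10.1, 8.43 and 6.31 CPM of it and Kit- CD41+ CD45- cells 1.1, 0, 1.36 and 1.45 CPM under anti-Dll4, and under IgG the values were 12.6, 9.23, 8.22 and 2.33 CPM in Kit+ CD45+ cells and 0.77, 2.13, 1.9 and 2.33 CPM in Kit- CD41+ CD45- cells. Its groups were apart under anti-Dll4 (2.86 ± 0.71, SE, adjusted p = 0.00265) and overlapped under IgG, where 1 Kit+ CD45+ library stood low (2.19 ± 0.67, adjusted p = 0.0125).

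**Figure D3:**
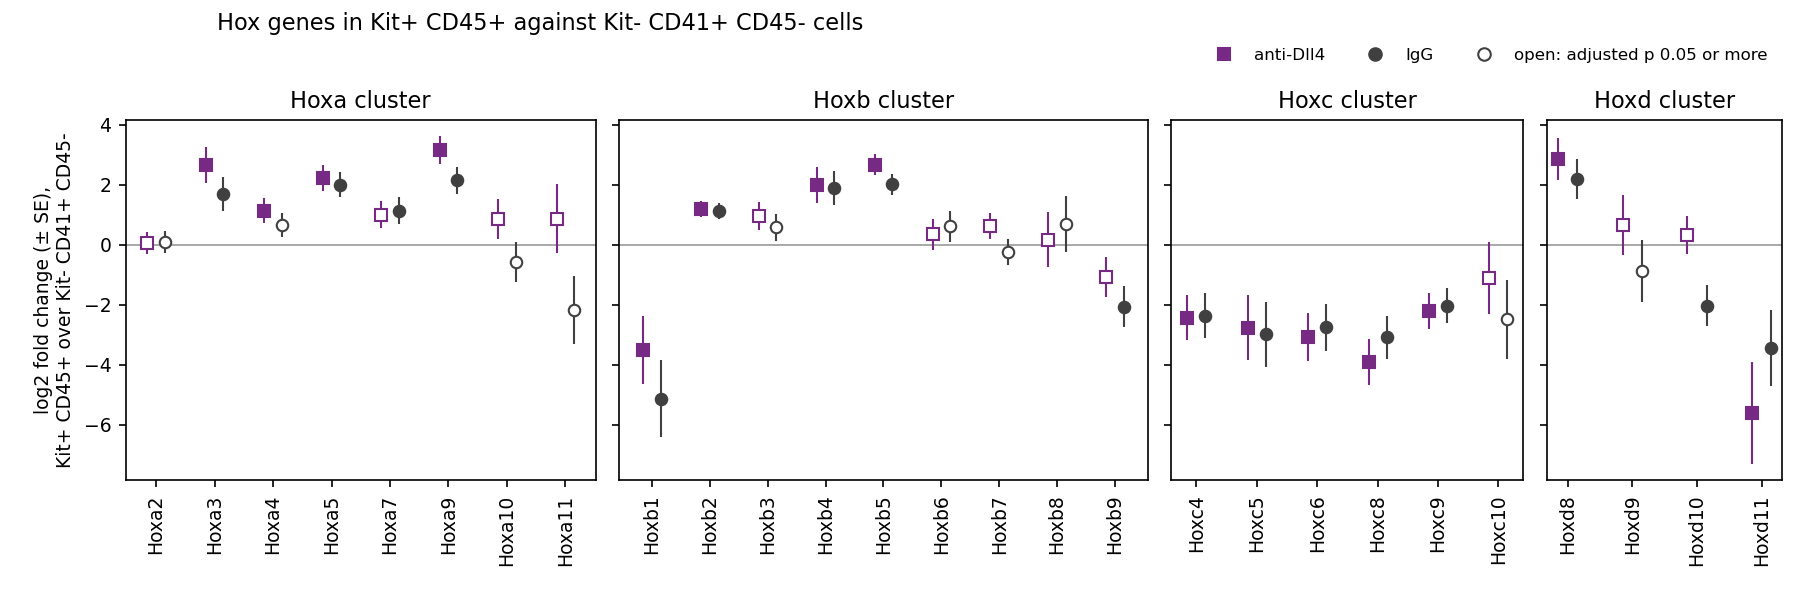
Log2 fold change of tested Hox genes in Kit+ CD45+ against Kit- CD41+ CD45- cells, one panel per cluster: squares show the anti-Dll4 libraries, circles the IgG libraries, bars the standard error, and open symbols an adjusted p of 0.05 or more. All 6 tested Hoxc genes lie below 0 under both antibodies, and the fitted value of Hoxd11 under anti-Dll4 rests on 0 counts in all 4 Kit+ CD45+ libraries.

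Promoter sequence from RefSeq (GRCm38.p6) was at hand for 22 of the 38 members and is shown for the 4 genes called in both antibody groups whose 250 bases before the start hold one of 3 motifs. Capitals mark the match, searched on both strands: TGACAG for MEIS and PKNOX, the TALE partners of Hox proteins, TGATNNAT for a PBX-HOX pair, and TGGGAA for RBPJ, the DNA-binding factor of Notch signalling. Hoxa9 at chr6:52227371-52227620 on the minus strand holds TGGGAA and Hoxa3 at chr6:52213068-52213317 on the minus strand holds TGACAG, and both genes were higher in Kit+ CD45+ cells. Hoxb1 at chr11:96365508-96365757 on the plus strand and one of the starts of Hoxd11 at chr2:74682073-74682322 on the plus strand hold TGATNNAT, and both were lower.
Hoxa9: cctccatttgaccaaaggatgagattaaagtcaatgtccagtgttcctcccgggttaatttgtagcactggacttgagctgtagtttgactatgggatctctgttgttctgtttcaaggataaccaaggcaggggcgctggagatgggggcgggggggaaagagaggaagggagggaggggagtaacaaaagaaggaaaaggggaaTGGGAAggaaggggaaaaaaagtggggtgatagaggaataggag
Hoxa3: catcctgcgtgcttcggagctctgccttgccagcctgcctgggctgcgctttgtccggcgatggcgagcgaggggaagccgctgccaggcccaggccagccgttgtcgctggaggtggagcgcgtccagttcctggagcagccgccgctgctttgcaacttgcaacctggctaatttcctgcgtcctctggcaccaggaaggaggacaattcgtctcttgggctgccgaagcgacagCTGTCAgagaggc
Hoxb1: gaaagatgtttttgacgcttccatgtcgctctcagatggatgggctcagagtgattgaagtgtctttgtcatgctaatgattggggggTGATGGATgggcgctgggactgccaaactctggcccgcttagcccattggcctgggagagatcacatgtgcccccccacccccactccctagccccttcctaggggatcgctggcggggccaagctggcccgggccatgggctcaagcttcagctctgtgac
Hoxd11: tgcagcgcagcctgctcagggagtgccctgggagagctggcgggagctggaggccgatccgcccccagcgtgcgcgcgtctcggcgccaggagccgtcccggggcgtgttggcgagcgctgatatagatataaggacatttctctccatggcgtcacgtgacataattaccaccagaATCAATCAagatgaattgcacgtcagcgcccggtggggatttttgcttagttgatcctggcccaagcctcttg
A gene was counted where any of its listed starts holds the motif in that window. Of all 27025 genes with a promoter, 17.9% held TGACAG, 24.1% TGGGAA and 8.81% TGATNNAT; of the 22 Hox genes, 2, 4 and 4 held them. A match describes these letters and is not evidence of binding.

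The 7 genes lower in Kit+ CD45+ than in Kit- CD41+ CD45- cells under both antibodies included 5 of the 6 tested Hoxc genes. Hoxc8 had 0, 0.232, 0.086 and 0.561 CPM in Kit+ CD45+ cells and 2.71, 5.84, 3.76 and 2.22 CPM in Kit- CD41+ CD45- cells under anti-Dll4, and under IgG 0.399, 1.21, 0 and 0.179 CPM in Kit+ CD45+ cells and 3.42, 4.25, 3.71 and 4.22 CPM in Kit- CD41+ CD45- cells. No Kit+ CD45+ library reached any Kit- CD41+ CD45- library, and the log2 fold changes were -3.90 ± 0.77 (SE, adjusted p = 3.05e-04) under anti-Dll4 and -3.08 ± 0.72 (adjusted p = 0.00156) under IgG. Hoxc6, a thoracic-level gene, had 1.68, 0.31, 0.516 and 0.702 CPM in Kit+ CD45+ cells, against 3.62, 4.03, 12.4 and 6.89 CPM in Kit- CD41+ CD45- cells under anti-Dll4. Under IgG the values were 2.39, 1.14, 0.533 and 0 CPM in Kit+ CD45+ cells and 3.25, 6.02, 8.01 and 10.9 CPM in Kit- CD41+ CD45- cells. Its log2 fold changes were -3.07 ± 0.81 (SE, adjusted p = 0.00417) under anti-Dll4 and -2.74 ± 0.78 (adjusted p = 0.00777) under IgG, without overlap under either antibody. Hoxc9, which helps set the boundaries of motor neuron columns in the thoracic cord, had 1.21, 1.32, 0.774 and 0.982 CPM in Kit+ CD45+ cells and 3.41, 6.15, 5.33 and 4.89 CPM in Kit- CD41+ CD45- cells under anti-Dll4. It had 2.86, 0.0757, 0.914 and 0.359 CPM in Kit+ CD45+ cells and 2.22, 5.05, 5.01 and 5.44 CPM in Kit- CD41+ CD45- cells under IgG, where the highest Kit+ CD45+ library passed the lowest Kit- CD41+ CD45- library. Its changes were -2.19 ± 0.59 (SE, adjusted p = 0.00516) under anti-Dll4 and -2.03 ± 0.59 (adjusted p = 0.00863) under IgG, a call lost with only the groups compared (-2.04).

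The more anterior Hoxc genes were lower too, but less securely. Hoxc4 had 0.559, 2.71, 0 and 0.491 CPM in Kit+ CD45+ cells and 2.51, 5.54, 11.1 and 1.45 CPM in Kit- CD41+ CD45- cells under anti-Dll4 (log2 fold change -2.43 ± 0.75 (SE), adjusted p = 0.0131). Its IgG values were 1.66, 0.227, 0.914 and 0.269 CPM in Kit+ CD45+ cells and 3.08, 5.31, 4.31 and 3.55 CPM in Kit- CD41+ CD45- cells (log2 fold change -2.36 ± 0.75 (SE), adjusted p = 0.0159). The Hoxc4 groups overlapped under anti-Dll4 and did not under IgG. The anti-Dll4 call was lost without Kit- CD41+ CD45- anti-Dll4 replicate 3 (-1.76), and the IgG call without Kit+ CD45+ IgG replicates 2 or 4 (-2.06 and -2.10). Hoxc5 had 1.12, 1.47, 0 and 0.351 CPM in Kit+ CD45+ cells and 3.11, 7.96, 4.59 and 4.45 CPM in Kit- CD41+ CD45- cells under anti-Dll4 (log2 fold change -2.76 ± 1.08 (SE), adjusted p = 0.0482), and 0, 2.72, 0 and 0 CPM in Kit+ CD45+ cells and 1.63, 9.03, 7.81 and 3.44 CPM in Kit- CD41+ CD45- cells under IgG (log2 fold change -2.98 ± 1.09 (SE), adjusted p = 0.034). Hoxc5 was at 0 in 4 of the 8 Kit+ CD45+ libraries, and its groups overlapped under IgG. Its anti-Dll4 call was lost without Kit- CD41+ CD45- anti-Dll4 replicates 1, 2, 3 or 4 (-2.93, -2.45, -2.83 and -2.81) or Kit+ CD45+ anti-Dll4 replicates 1, 3 or 4 (-3.01, -2.35 and -2.52), or with no filter on low counts (-2.82). Its IgG call was lost without Kit- CD41+ CD45- IgG replicates 2 or 3 (-2.62 and -2.76) or Kit+ CD45+ IgG replicates 1, 3 or 4 (-2.55, -2.57 and -2.59), or with no filter on low counts (-3.03) or with only the groups compared (-3.02). Hoxc10 was not called, with 0.688 to 1.54 CPM in Kit+ CD45+ anti-Dll4 libraries, 0 to 0.865 CPM in Kit+ CD45+ IgG libraries, and 0 to 3.83 and 0.0885 to 3.41 CPM in Kit- CD41+ CD45- libraries under anti-Dll4 and IgG. Hoxc11, which was not tested, was at 0 in all 8 Kit+ CD45+ libraries, at least 2.82-fold lower than in Kit- CD41+ CD45- IgG libraries with a floor of 3 counts per library. With the same floor, Hoxd13 and Hoxd3, also not tested, were at 0 in the Kit+ CD45+ IgG libraries and at least 3.41-fold and 2.12-fold lower there than in Kit- CD41+ CD45- IgG libraries. These folds are of group means. For each of Hoxc11, Hoxd13 and Hoxd3 the groups overlapped, with at least 1 Kit- CD41+ CD45- IgG library also at 0. Over the 24 libraries, Hoxc11 was detected in 6 (at most 22 counts), Hoxd13 in 9 (at most 29) and Hoxd3 in 16 (at most 13).

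Among the lower genes of other clusters, Hoxb1, which specifies a hindbrain segment, was nearly undetected in Kit+ CD45+ cells. It had 0.652, 0, 0 and 0.14 CPM there and 2.21, 1.21, 2.51 and 3.22 CPM in Kit- CD41+ CD45- cells under anti-Dll4. Under IgG it had 0.0665, 0, 0.152 and 0 CPM in Kit+ CD45+ cells and 0.684, 4.07, 1.0 and 3.77 CPM in Kit- CD41+ CD45- cells. The groups were separate under both antibodies (-3.51 ± 1.14, SE, adjusted p = 0.018 under anti-Dll4; -5.12 ± 1.28, adjusted p = 0.00285 under IgG), though the anti-Dll4 call was lost without Kit+ CD45+ anti-Dll4 replicates 2, 3 or 4 (-3.09, -3.11 and -3.38). Hoxb9, at the posterior side of the Hoxb cluster, had 1.06, 0.605, 4.26 and 0.807 CPM in Kit+ CD45+ IgG libraries and 9.58, 9.3, 4.81 and 4.55 CPM in Kit- CD41+ CD45- IgG libraries. It was called under IgG alone (log2 fold change -2.06 ± 0.68 (SE), adjusted p = 0.0193), without overlap, and the call was lost without Kit+ CD45+ IgG replicates 1, 2 or 4 (-1.89, -1.78 and -1.84); under anti-Dll4 the change was -1.06 ± 0.66 (adjusted p = 0.221). Hoxd10, a posterior limb and spinal cord gene, was likewise called under IgG (0.532, 0.757, 1.52 and 0.538 CPM in Kit+ CD45+ cells and 2.82, 4.43, 2.4 and 4.11 CPM in Kit- CD41+ CD45- cells; log2 fold change -2.02 ± 0.67 (SE), adjusted p = 0.0203), a call lost without Kit+ CD45+ IgG replicates 1 or 4 (-1.85 and -1.87). Under anti-Dll4 its change was 0.34 ± 0.63 (adjusted p = 0.713), and the anti-Dll4 effect on Hoxd10 did not pass the test of a difference between populations (adjusted p = 1). Hoxd11 was at 0 in all 4 Kit+ CD45+ anti-Dll4 libraries and at 0.201, 1.31, 0 and 0.778 CPM in Kit- CD41+ CD45- anti-Dll4 libraries, at least 2.33-fold lower with the same floor. Under IgG it had 0, 0.378, 0 and 0 CPM in Kit+ CD45+ cells and 0.257, 0.885, 1.7 and 1.78 CPM in Kit- CD41+ CD45- cells (log2 fold change -3.43 ± 1.27 (SE), adjusted p = 0.0383), a call lost without Kit- CD41+ CD45- IgG replicates 2, 3 or 4 (-3.54, -3.18 and -3.15) or Kit+ CD45+ IgG replicates 1, 3 or 4 (-3.03, -3.06 and -3.09), or with no filter on low counts (-3.48).

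**Figure D4:**
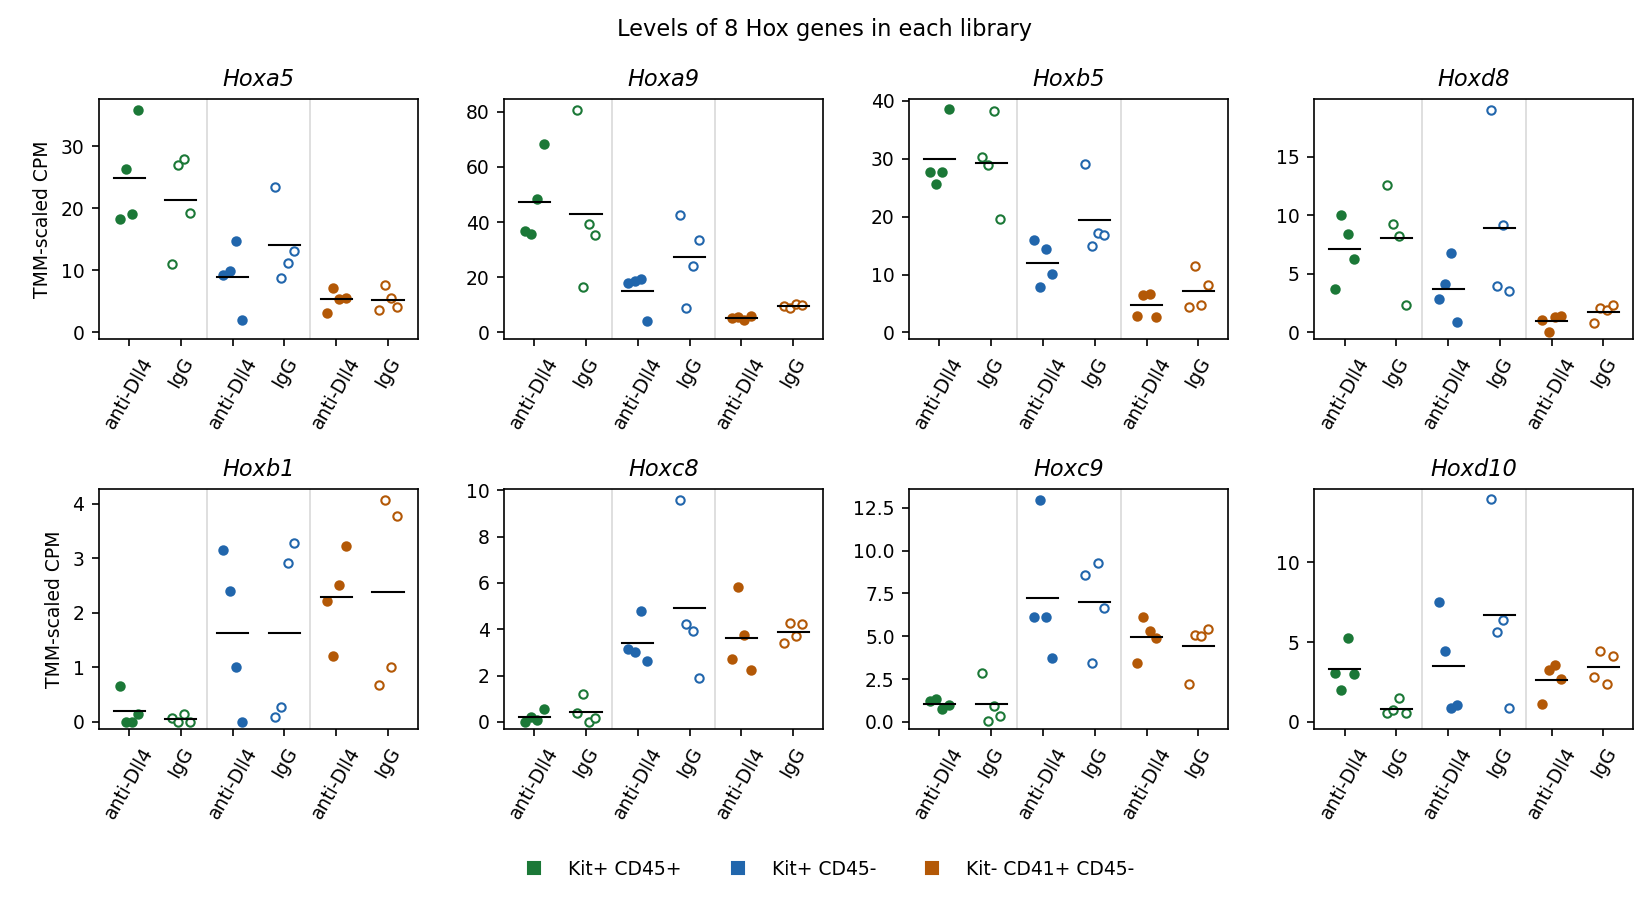
TMM-scaled CPM of 8 Hox genes in each library: each point is a library, filled for anti-Dll4 and open for IgG, bars are means of 4, and colours and column pairs separate the 3 populations. Hoxa5, Hoxa9 and Hoxb5 have their highest means in Kit+ CD45+ cells, and Hoxb1, Hoxc8 and Hoxc9 their lowest.

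The Kit+ CD45+ cells were also set against Kit+ CD45- cells, the other Kit-bearing population. This comparison shares its Kit+ CD45+ libraries with the one above. Under anti-Dll4, 5 members were higher and 3 lower of 28, close to the 29.2% of all genes called (16.6% higher, 12.6% lower). Under IgG, none was higher and 8 were lower, with 19.2% of all genes called (10% higher, 9.18% lower). The genes lower under both antibodies were Hoxb1, Hoxc8 and Hoxc9, which are 37.5% of each list. Hoxc8 had 3.14, 3.02, 4.8 and 2.62 CPM in Kit+ CD45- anti-Dll4 libraries and 9.59, 4.24, 3.92 and 1.89 CPM in Kit+ CD45- IgG libraries, all above the Kit+ CD45+ values under the same antibody (-3.81 ± 0.77, SE, adjusted p = 6.85e-04 under anti-Dll4; -3.42 ± 0.72, adjusted p = 0.00149 under IgG). Hoxc9 had 6.15, 13, 6.1 and 3.72 CPM in Kit+ CD45- cells under anti-Dll4 and 8.58, 3.42, 9.3 and 6.67 CPM under IgG, again above every Kit+ CD45+ library of that antibody (-2.75 ± 0.60, SE, adjusted p = 0.00133 under anti-Dll4; -2.69 ± 0.59, adjusted p = 0.00218 under IgG). Hoxb1 had 3.14, 2.39, 1.0 and 0 CPM under anti-Dll4 and 0.0922, 0.273, 2.91 and 3.27 CPM under IgG in Kit+ CD45- cells, overlapping the Kit+ CD45+ values (-3.05 ± 1.14, SE, adjusted p = 0.0469 under anti-Dll4; -4.58 ± 1.28, adjusted p = 0.0134 under IgG). Its anti-Dll4 call was lost without Kit+ CD45- anti-Dll4 replicates 1 or 2 (-2.57 and -2.84) or Kit+ CD45+ anti-Dll4 replicates 2, 3 or 4 (-2.64, -2.66 and -2.92), or with no filter on low counts (-3.06).

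The remaining calls in this pair were made under 1 antibody only. Among the genes higher under anti-Dll4 were Hoxa5 (1.44 ± 0.42, SE, adjusted p = 0.0118), Hoxa9 (1.64 ± 0.43, adjusted p = 0.00637), Hoxb5 (1.30 ± 0.33, adjusted p = 0.0049) and Hoxb2 (0.75 ± 0.26, adjusted p = 0.0339). In Kit+ CD45- anti-Dll4 libraries Hoxa9 had 17.9, 18.5, 19.3 and 4.15 CPM, Hoxb5 16, 7.81, 14.4 and 10.1 CPM and Hoxb2 28.8, 18.5, 26.8 and 13.8 CPM. None of these genes overlapped between groups, and 6 members in all lay above without overlap, Hoxa7 among them (15.1% of all genes), while Hoxc5, Hoxc8 and Hoxc9 lay below (9.36%). The call of Hoxa5 was lost without Kit+ CD45+ anti-Dll4 replicate 4 (1.21). That of Hoxb2 was lost without Kit+ CD45- anti-Dll4 replicates 2 or 4 (0.66 and 0.57) or Kit+ CD45+ anti-Dll4 replicate 4 (0.58), or with RLE normalization (0.69), with upper-quartile normalization (0.63), with globin genes left out (0.67), with no filter on low counts (0.74) or with only the groups compared (0.69). Under IgG these same genes were not called: Hoxa9 had 42.7, 9.02, 24.1 and 33.6 CPM in Kit+ CD45- IgG libraries (0.65 ± 0.42, adjusted p = 0.314) and Hoxb2 52, 23.2, 40.7 and 32.2 CPM (0.04 ± 0.26, adjusted p = 0.947). Lower under IgG alone were Hoxa10 (-1.92 ± 0.68, SE, adjusted p = 0.049), Hoxb9 (-2.06 ± 0.68, adjusted p = 0.0352), Hoxc4 (-2.35 ± 0.75, adjusted p = 0.0307), Hoxc6 (-2.46 ± 0.78, adjusted p = 0.0283) and Hoxd10 (-2.99 ± 0.68, adjusted p = 0.00293). Hoxd10 had 0.532, 0.757, 1.52 and 0.538 CPM in Kit+ CD45+ IgG libraries and 13.9, 5.6, 6.39 and 0.881 CPM in Kit+ CD45- IgG libraries, with 1 Kit+ CD45- library among the Kit+ CD45+ values. Hoxa10, which with Hoxa9 regulates myeloid progenitors, had 6.45, 2.42, 6.17 and 4.48 CPM in Kit+ CD45+ IgG libraries, against 37, 9.02, 16.1 and 11.6 CPM in Kit+ CD45- IgG libraries. Its call was lost without Kit+ CD45- IgG replicates 1, 3 or 4 (-1.32, -1.98 and -2.09) or Kit+ CD45+ IgG replicates 1, 2, 3 or 4 (-2.08, -1.69, -2.05 and -1.88), or with no filter on low counts (-1.91). Hoxa10, Hoxc4, Hoxc8 and Hoxc9 were the tested members below without overlap under IgG (8.79% of all genes), and Hoxd3, not tested, lay below too. Hoxb9 lost its call without Kit+ CD45- IgG replicates 3 or 4 (-1.75 and -1.90) or Kit+ CD45+ IgG replicates 1, 2 or 4 (-1.89, -1.78 and -1.84), or with only the groups compared (-2.08). Hoxc4 lost it without Kit+ CD45- IgG replicates 3 or 4 (-2.25 and -2.36) or Kit+ CD45+ IgG replicates 2, 3 or 4 (-2.05, -2.43 and -2.08). Hoxc6 lost it without Kit+ CD45- IgG replicate 1 (-1.30) or Kit+ CD45+ IgG replicates 2, 3 or 4 (-2.50, -2.25 and -2.07), or with only the groups compared (-2.47).

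Kit+ CD45- cells were compared last with Kit- CD41+ CD45- cells, and this pair had the fewest Hox calls. Under anti-Dll4, 4 members were higher and none lower of 28, a smaller share than the 29.9% of all genes called (14.7% higher, 15.2% lower). Under IgG, 6 were higher and none lower, also a smaller share than the 27.9% of all genes (14% higher, 13.8% lower). Hoxa9, Hoxb5 and Hoxd8 were higher under both antibodies, 75% of the anti-Dll4 list and 50% of the IgG list. Hoxb5 rose by 1.37 ± 0.35 (SE, adjusted p = 0.0043) under anti-Dll4 and 1.43 ± 0.34 (adjusted p = 0.00246) under IgG, where its Kit+ CD45- libraries held 29.1, 14.9, 17.1 and 16.7 CPM. Hoxd8 had 2.87, 4.16, 6.8 and 0.875 CPM in Kit+ CD45- cells under anti-Dll4 (log2 fold change 1.95 ± 0.71 (SE), adjusted p = 0.042) and 19, 3.96, 9.19 and 3.52 CPM under IgG (log2 fold change 2.33 ± 0.68 (SE), adjusted p = 0.0115). Hoxa9 rose by 1.51 ± 0.46 (SE, adjusted p = 0.0139) under anti-Dll4 and 1.51 ± 0.44 (adjusted p = 0.0119) under IgG. Hoxa3 was called under anti-Dll4 (2.46, 1.76, 6.5 and 1.97 CPM in Kit+ CD45- cells; log2 fold change 1.60 ± 0.60 (SE), adjusted p = 0.0476). Hoxa5 (1.43 ± 0.43, SE, adjusted p = 0.0138) and Hoxb2 (1.09 ± 0.26, adjusted p = 0.00297) were among those called under IgG. In Kit+ CD45- IgG libraries Hoxa5 had 23.5, 8.75, 11.2 and 13.1 CPM. Without Kit+ CD45- IgG replicate 1, the library highest in summed Hox CPM, the IgG count was 2 and not 6. That library also stood apart in markers of other cell types, and their part in the count was not tested. It had 1019.6 CPM of endothelial markers (others 524 to 591), 618 of stem and progenitor markers (others 310 to 391) and 457 of megakaryocyte markers (others 1695 to 2375), and a globin share of 16.8% (others 27.4 to 33.7%). Without Kit+ CD45- anti-Dll4 replicate 3, or Kit- CD41+ CD45- anti-Dll4 replicate 1, 3 or 4, the anti-Dll4 count was 2. The anti-Dll4 call of Hoxd8 was lost without Kit+ CD45- anti-Dll4 replicates 2 or 3 (1.88 and 1.47) or Kit- CD41+ CD45- anti-Dll4 replicates 1, 2, 3 or 4 (2.01, 1.53, 2.13 and 2.19), or with no filter on low counts (1.91) or with only the groups compared (1.93). That of Hoxa3 was lost without Kit+ CD45- anti-Dll4 replicates 1 or 3 (1.69 and 0.95) or Kit- CD41+ CD45- anti-Dll4 replicates 1, 3 or 4 (1.32, 1.77 and 1.43), or with no filter on low counts (1.56) or with only the groups compared (1.59). Under IgG, leaving out 1 library ended the call of Hoxd8 without Kit+ CD45- IgG replicate 1 (1.65), of Hoxa5 without Kit+ CD45- IgG replicate 1 (1.07) or Kit- CD41+ CD45- IgG replicate 1 (1.29) and of Hoxa9 without Kit+ CD45- IgG replicate 1 (1.20). Without overlap of the groups, 3 members lay above under anti-Dll4 (Hoxa3, Hoxb4 and Hoxb5; 12.6% of all genes) and 7 under IgG (13.1%). Below without overlap lay Hoxd3, not tested, under anti-Dll4 (16% of all genes) and no member under IgG (16.1%). Markers of other cell types moved in this pair as well, and their part in the Hox calls was not tested. All 6 red-cell markers were higher and all 5 megakaryocyte markers lower in Kit+ CD45- cells under both antibodies. Endothelial markers were higher in 4 of 6 cases under anti-Dll4 and 5 under IgG. Stem and progenitor markers were higher in 5 of 6 cases under anti-Dll4 and 4 under IgG, with 1 lower under each. No Hoxc gene was called in this pair, and their median log2 fold changes were -0.14 under anti-Dll4 and 0.16 under IgG, against -2.32 to -2.77 in the comparisons with Kit+ CD45+ cells.

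Markers of some other tissues, but not of all, moved with the Hoxc genes, and their part in the Hoxc result was not tested. Of 12 trunk mesenchyme markers, 8 were lower in Kit+ CD45+ than in Kit- CD41+ CD45- cells under anti-Dll4 and 6 under IgG, and 6 and 7 were lower than in Kit+ CD45- cells. Of all genes tested, 17.3% and 17.5% were called lower than in Kit- CD41+ CD45- cells (anti-Dll4 and IgG). Against Kit+ CD45- cells, 12.6% and 9.18% were called lower. Their summed CPM was 13.6 to 30.7 in Kit+ CD45+ anti-Dll4 libraries and 10.51 to 23.4 in Kit+ CD45+ IgG libraries. It was 36.1 to 639 and 38 to 169 in Kit+ CD45- cells, and 59 to 303 and 51.7 to 145 in Kit- CD41+ CD45- cells, anti-Dll4 before IgG. Lum was at 0 in all Kit+ CD45+ IgG libraries, and no other mesenchyme marker was at 0 throughout a group. Of 6 neural markers 4 were tested, and all 4 were lower in Kit+ CD45+ than in Kit- CD41+ CD45- cells under each antibody. Against Kit+ CD45- cells, 4 were lower under anti-Dll4 and 1 under IgG. The neural sums were, anti-Dll4 before IgG, 0.0775 to 2.05 and 0.152 to 4.12 CPM in Kit+ CD45+ cells, 11.6 to 37.1 and 3.28 to 15.6 CPM in Kit+ CD45- cells, and 9.84 to 24.4 and 3.21 to 17.6 CPM in Kit- CD41+ CD45- cells. Of 5 epithelial markers, 2 (anti-Dll4) and 4 (IgG) were lower than in Kit- CD41+ CD45- cells, and 1 and 4 lower than in Kit+ CD45- cells. Of 5 tested markers of intermediate mesoderm and coelomic lining, 2 were higher than in Kit- CD41+ CD45- cells under anti-Dll4 and 1 was lower under IgG. Against Kit+ CD45- cells, 1 was higher and 0 lower under each antibody. The 6 macrophage markers were higher and the 6 red-cell markers lower in Kit+ CD45+ cells in all 4 comparisons with Kit+ CD45+ cells. The macrophage sums were 1045, 1346, 669 and 595 CPM in Kit+ CD45+ anti-Dll4 libraries and 109, 1594, 1142 and 1620.1 CPM in Kit+ CD45+ IgG libraries, where replicate 1 stood low, and at most 8.67 CPM elsewhere. Without that replicate, 13 and not 18 members were called against Kit- CD41+ CD45- cells and 6 and not 8 against Kit+ CD45- cells, both under IgG. Red-cell sums were 48.5 to 171 and 66.5 to 128 CPM in Kit+ CD45+ cells (anti-Dll4 and IgG) and at least 38882 CPM in every other library.

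The markers of blood-forming and endothelial cells moved with the Hoxa and Hoxb genes that were higher in Kit+ CD45+ cells, and their part in those results was not tested either. Against Kit- CD41+ CD45- cells, 6 of 6 endothelial markers were higher in Kit+ CD45+ cells under anti-Dll4 and 5 under IgG. Of the 6 stem and progenitor markers 5 were higher under each antibody and 1 was lower under IgG, and all 5 megakaryocyte markers were lower. The endothelial sums were, anti-Dll4 before IgG, 811 to 1083 and 761 to 1171 CPM in Kit+ CD45+ cells, 254 to 518 and 524 to 1019.6 CPM in Kit+ CD45- cells, and 167 to 216 and 164 to 248 CPM in Kit- CD41+ CD45- cells. In the same order, the stem and progenitor sums were 797 to 1047 and 706 to 1289.7, 162 to 316 and 310.0 to 618, and 159 to 175 and 156 to 217 CPM. The megakaryocyte sums were 197 to 337 and 22 to 200.3, 227 to 1158 and 457 to 2375, and 13795 to 18865 and 14133 to 18773 CPM. By group median, the endothelial and progenitor sums were highest in Kit+ CD45+ cells and lowest in Kit- CD41+ CD45- cells. The megakaryocyte sums ran the other way.

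Members not called in any comparison were Hoxa2, Hoxa11, Hoxb3, Hoxb6, Hoxb7, Hoxb8, Hoxc10 and Hoxd9. Hoxa2, a hindbrain patterning gene, had 4.01 to 6.38 and 2.79 to 6.74 CPM in Kit+ CD45+ cells (anti-Dll4 and IgG), 3.9 to 8.61 and 3.9 to 9.68 CPM in Kit+ CD45- cells, and 2.67 to 6.37 and 2.57 to 6.73 CPM in Kit- CD41+ CD45- cells. In the same order, Hoxb3 had 1.38 to 3.64 and 1.79 to 3.33, 0.882 to 3.28 and 2.27 to 3.5, and 0.667 to 2.3 and 1.2 to 2.21 CPM. Hoxa2 therefore overlapped across the 3 populations under each antibody. Hoxb3 overlapped too, except under IgG, where every Kit+ CD45- library lay above every Kit- CD41+ CD45- library, as for 13.1% of all genes tested. Hoxb6 spanned 3.07 to 6.24 and 0.717 to 6.93 CPM in Kit+ CD45+ cells, 1.75 to 4.3 and 3.28 to 11.7 CPM in Kit+ CD45- cells, and 1.1 to 6.16 and 2.57 to 3.28 CPM in Kit- CD41+ CD45- cells. Hoxb7 spanned 3.78 to 8.21 and 2.33 to 7.16, 2.52 to 7.1 and 3.01 to 9.78, and 2.11 to 4.94 and 3.51 to 8.85 CPM. The ranges of Hoxd9 reached from 0 or near it in most groups, with 1.39 to 2.95 and 0 to 2.13 CPM in Kit+ CD45+ cells, 0.126 to 2.0 and 0.957 to 8.12 CPM in Kit+ CD45- cells, and 0.402 to 1.81 and 0.0855 to 2.7 CPM in Kit- CD41+ CD45- cells. Hoxa11, a limb and uterus gene, averaged at most 1.76 ± 0.8287 CPM (Kit- CD41+ CD45- IgG, SD, n = 4), and Hoxb8 at most 0.943 ± 0.468 CPM (Kit+ CD45- IgG). A missed threshold at these levels does not show that the populations are alike.

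Blocking Dll4 was asked about within each population, where the edgeR test called none of the 28 members. The calls over all genes were 0% in Kit+ CD45- and in Kit- CD41+ CD45- cells and 0.0064% (1 gene) in Kit+ CD45+ cells, and DESeq2 called no member either. At an unadjusted p below 0.05 there was 1 member of 28 in Kit+ CD45+ cells, Hoxd10, with 453 of all genes tested. There were 3 in Kit+ CD45- cells, Hoxa10 and Hoxb2 among them, with 1733 of all genes, and 1 in Kit- CD41+ CD45- cells, Hoxa3, with 435. The test of whether the anti-Dll4 effect differed between populations called no member by edgeR or DESeq2, with 0.0256% of all genes called. In that test Hoxd10 and Hoxa10 had unadjusted p = 0.0103 and 0.0271, both with an adjusted p of 1.

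In Kit+ CD45- cells, 26 of the 28 tested members had lower fitted levels under anti-Dll4, with Hoxb1 and Hoxc9 the exceptions. The median log2 fold change was -0.74 over the members and -0.03 over all genes tested. The smallest adjusted p was 0.337, of Hoxb2: 28.8, 18.5, 26.8 and 13.8 CPM under anti-Dll4 and 52, 23.2, 40.7 and 32.2 CPM under IgG (-0.75 ± 0.26, SE). Hoxa10 had 10.7, 6.68, 2.5 and 0 CPM under anti-Dll4 and 37, 9.02, 16.1 and 11.6 CPM under IgG (-1.87 ± 0.69, SE, adjusted p = 0.362). The groups overlapped for each of the 28 members, whereas 0.916% of all genes lay above and 2.23% below without overlap. The libraries spread widely: summed Hox CPM was 179, 132, 151 and 65.6 under anti-Dll4 and 364, 133, 238 and 179.9 under IgG. Leaving out 1 library moved the median over the members to between -0.90 and -0.44. It was -0.44 without Kit+ CD45- IgG replicate 1 and -0.58 without Kit+ CD45- anti-Dll4 replicate 4. The lowest library, anti-Dll4 replicate 4, also had the highest globin share (49.3%) and the highest summed mesenchyme markers (639 CPM), and the part of these in its Hox level was not tested. Endothelial markers summed to 518, 415, 353 and 254 CPM under anti-Dll4, against 1019.6, 524, 586 and 591 CPM under IgG, without overlap, and had a median log2 fold change of -0.81 over 6 genes. Stem and progenitor markers summed to 313, 316, 299 and 162 CPM under anti-Dll4 and 618, 325, 310.0 and 391 CPM under IgG, with overlap and a median of -0.10. Megakaryocyte markers summed to 1158, 227, 283 and 784 CPM under anti-Dll4 and 457, 1841, 1695 and 2375 CPM under IgG, with overlap and a median of -1.26. None of these markers was called, and their part in the lower fitted Hox levels was not tested.

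In Kit- CD41+ CD45- cells 21 of 28 members were lower in fitted level under anti-Dll4, with a median of -0.26 over the members and -0.01 over all genes. Hoxa9 (5.32, 5.44, 4.49 and 6.0 CPM under anti-Dll4 and 9.5, 8.94, 10.2 and 9.99 CPM under IgG) and Hoxa11 (0.301, 0.504, 0.94 and 0 CPM under anti-Dll4 and 1.71, 2.92, 1.4 and 0.999 CPM under IgG) lay below without overlap, as did 1.15% of all genes tested, and no member lay above (1.07%). The Hoxa9 change was -0.86 ± 0.45 (SE, adjusted p = 1). In Kit+ CD45+ cells 16 members were higher and 12 lower in fitted level, with a median of 0.03 over the members and 0.00 over all genes. Hoxd10 alone lay above without overlap, as did 0.96% of all genes, and no member lay below (0.839%): 3.07, 2.01, 5.25 and 3.02 CPM under anti-Dll4 and 0.532, 0.757, 1.52 and 0.538 CPM under IgG (1.98 ± 0.67, SE, adjusted p = 1). The 4 members highest per kilobase in these cells had log2 fold changes of 0.23 ± 0.40 for Hoxa5, -0.03 ± 0.26 for Hoxb2, 0.03 ± 0.32 for Hoxb5 and 0.14 ± 0.42 for Hoxa9 (SE).

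Genes that act with or on the Hox clusters were read from lists chosen with earlier results of these data known. Of 9 TALE cofactors 8 were tested, and in no population comparison was one called higher. Against Kit- CD41+ CD45- cells, 3 were lower in Kit+ CD45+ cells under each antibody, with 17.3% (anti-Dll4) and 17.5% (IgG) of all genes called lower. Meis1, a DNA-binding partner of Hox proteins, had 39 ± 6.14 CPM in Kit+ CD45+ cells, against 128 ± 20.1 CPM in Kit- CD41+ CD45- cells under anti-Dll4 (SD, n = 4 each; log2 fold change -1.72 ± 0.23 (SE), adjusted p = 1.81e-06), and 37.4 ± 7.92 against 139 ± 14.6 CPM under IgG (log2 fold change -1.90 ± 0.23 (SE), adjusted p = 4.73e-07). Meis3 fell as well (-2.68 ± 0.57 under anti-Dll4, SE, adjusted p = 6.16e-04; -1.60 ± 0.54 under IgG, adjusted p = 0.022). Meis1 and Meis3 were thus lower in the population where Hoxa5, Hoxa9, Hoxb2 and Hoxb5 were higher. Against Kit+ CD45- cells, 2 were lower in Kit+ CD45+ cells under each antibody, Meis3 among them. Between Kit+ CD45- and Kit- CD41+ CD45- cells, 3 were lower under anti-Dll4, Meis1 and Pbx2 among them, and 2 under IgG, Meis1 among them.

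Noncoding genes of the clusters were tested in 8 cases of the 14 in the count table, and none was called lower in any comparison. Between Kit+ CD45+ and Kit- CD41+ CD45- cells, 4 of the 8 were higher under anti-Dll4 and 2 under IgG, with 20.4% and 19.7% of all genes called higher. Hotairm1, a noncoding gene of the Hoxa cluster, rose under both (6.66 ± 1.58 CPM in Kit+ CD45+ cells and 1.93 ± 0.90 CPM in Kit- CD41+ CD45- cells under anti-Dll4, log2 fold change 1.79 ± 0.45 (SE), adjusted p = 0.0027; 6.12 ± 2.09 and 2.45 ± 0.766 CPM under IgG, log2 fold change 1.32 ± 0.44 (SE), adjusted p = 0.0197). Hoxb3os had 42 ± 8.1 CPM in Kit+ CD45+ cells and 18.1 ± 4.54 CPM in Kit- CD41+ CD45- cells under anti-Dll4 (SD, n = 4 each). Hoxaas2 (2.22 ± 0.44, SE, adjusted p = 3.37e-04) and Hoxd3os1 (1.59 ± 0.52, adjusted p = 0.019) rose under anti-Dll4. Against Kit+ CD45- cells, Hoxb3os alone was higher, under anti-Dll4 (0.73 ± 0.25, adjusted p = 0.033). Higher in Kit+ CD45- than in Kit- CD41+ CD45- cells were Hoxaas2 (1.32 ± 0.45, adjusted p = 0.0286) and Haglr (1.98 ± 0.71, adjusted p = 0.0382) under anti-Dll4, and Hoxb3os (1.15 ± 0.26, adjusted p = 0.00145) under IgG.

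Chromatin regulators that keep Hox genes on or off were also compared between Kit+ CD45+ and Kit- CD41+ CD45- cells. Of all genes tested, 37.6% were called under anti-Dll4 (20.4% higher, 17.3% lower) and 37.2% under IgG (19.7% higher, 17.5% lower). Of 18 Trithorax and MLL-complex genes, 1 was higher and 3 lower under each antibody (22.2% and 22.2% called). Mllt3, an MLL fusion partner that supports haematopoietic stem cell maintenance, had 15.9 ± 2.66 CPM in Kit+ CD45+ cells and 180.5 ± 10.6 CPM in Kit- CD41+ CD45- cells under anti-Dll4 (SD, n = 4 each; log2 fold change -3.50 ± 0.28 (SE), adjusted p = 1.18e-09), and fell under IgG too (-3.36 ± 0.28, adjusted p = 1.72e-09). Of 22 Polycomb genes, 7 were higher and 1 lower under anti-Dll4, and 4 higher and 3 lower under IgG (36.4% and 31.8% called). The anti-Dll4 share was close to that of all genes, and its share called higher was larger than that of all genes. Eed, a core Polycomb subunit, rose by 0.77 ± 0.15 on the log2 scale (adjusted p = 1.98e-04) under anti-Dll4 and 0.57 ± 0.15 (adjusted p = 0.00338) under IgG. Jarid2, which recruits the same complex, fell (log2 fold changes -0.88 ± 0.19, adjusted p = 8.86e-04 under anti-Dll4, and -1.05 ± 0.19, adjusted p = 1.41e-04 under IgG). Retinoic acid induces anterior Hox genes, and of its 16 tested genes 3 were higher and 5 lower under anti-Dll4, and 3 higher and 4 lower under IgG (50% and 43.8% called). Cyp26b1, which degrades retinoic acid, rose by 4.93 ± 0.53 on the log2 scale (adjusted p = 1.04e-07) under anti-Dll4 and 4.48 ± 0.49 (adjusted p = 1.38e-07) under IgG. Dhrs3, which reduces retinaldehyde, fell (log2 fold changes -1.90 ± 0.22, adjusted p = 2.90e-07 under anti-Dll4, and -1.84 ± 0.22, adjusted p = 4.34e-07 under IgG). The binding protein Crabp1 fell (log2 fold changes -3.74 ± 0.58, adjusted p = 1.68e-05 under anti-Dll4, and -3.95 ± 0.59, adjusted p = 1.02e-05 under IgG). Of 9 ParaHox and related upstream homeodomain genes, Gbx2 alone was tested; it was lower in Kit+ CD45+ than in Kit- CD41+ CD45- cells under anti-Dll4 (-2.55 ± 0.53, adjusted p = 4.72e-04) and IgG (-2.75 ± 0.53, adjusted p = 2.25e-04).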

How the data were processed

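RNA from sorted cells was amplified as cDNA by LD-PCR, sheared, made into libraries with NEBNext Ultra and sequenced on an Illumina HiSeq, per the labels' protocols. The submitters' processing notes name CASAVA 1.4, FastQC, STAR, HTSeq, DESeq2 and mm10; no strand setting or annotation release could be read from these notes. Raw counts for 29716 genes, as deposited, were used throughout. The deposited log2 table holds log2(count / size factor + 1), checked on the file, and served to find the members by name. Positions, exon lengths and shared exons come from the GENCODE M21 annotation of GRCm38. The log2 table has 1 column of no listed sample, which was not used.

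Amplified reads without molecular identifiers are not independent molecules, and totals of 8718351 to 11379830 counts limit the low members. All 24 libraries entered 1 edgeR 4.0.16 fit (R 4.3.3, limma 3.58.1), with a coefficient per group, TMM scaling, filterByExpr, robust quasi-likelihood F-tests and Benjamini-Hochberg adjustment over 15618 genes at 0.05. Groups were compared between populations under each antibody, between antibodies in each population, and for an anti-Dll4 effect differing between populations. The fit was tested on simulated data, drawn as independent libraries with its own estimates of spread and few changed genes. That setting is simpler than these libraries, so it does not show how well the calls here hold. Alternatives were DESeq2 1.42.0, other scaling, no filter, a replicate block, fits of only the groups compared, leaving out each library and, added after seeing the data, the globin share as a covariate.

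A member was described with its values where its mean reached 1 CPM in a group, by library where it was called and by range otherwise; of the related lists, genes past the threshold were named, at most the 4 with the smallest p per list. Some genes that entered these tests and counts are not reported here by name. Members and lists were chosen with earlier results of these data known. Replicate numbers do not come with a statement of shared embryos or days.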

Additional observations from a re-analysis of the deposited data

Results flagged for a closer look

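In 186 groups of 4 libraries (the named members and the summed clusters in each group), 16 values stood far from the other 3 of their group, 8.6% of the groups. The cut used is passed by about 1 in 20 groups of independent, normally distributed values. These CPM include low and skewed counts, and the groups share libraries, so no excess over chance can be read from the 8.6%. Kit+ CD45- IgG replicate 1, the library highest in summed Hox CPM, accounted for 3 of them: Hoxa3 at 9.22 CPM (others 4.48 to 5.19), Hoxb5 at 29.1 CPM (others 14.9 to 17.1) and Hoxd9 at 8.12 CPM (others 0.957 to 1.46). In Kit+ CD45- anti-Dll4 libraries, Hoxa2 stood at 8.61 CPM in replicate 1 (others 3.90 to 3.94), Hoxa3 at 6.50 CPM in replicate 3 (others 1.76 to 2.46) and Hoxa9 at 4.15 CPM in replicate 4 (others 17.9 to 19.3).

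In Kit+ CD45+ anti-Dll4 libraries, replicate 4 had 49.5 CPM of Hoxb2 (others 32.6 to 33.3) and a summed Hoxb level of 111 CPM (others 74.4 to 77.9), and replicate 2 had 1.08 CPM of Hoxb9 (others 3.07 to 3.18). In Kit+ CD45+ IgG libraries, Hoxa7 stood at 22.3 CPM in replicate 1 (others 9.14 to 11.04), and Hoxb9 at 4.26 CPM in replicate 3 (others 0.605 to 1.06). Replicate 2 of that group was the only 1 of the 4 with reads of Hoxc5 (2.72 CPM) and of Hoxd11 (0.378 CPM), and replicate 4 had a summed Hoxd level of 2.87 CPM (others 12.3 to 13.3). In Kit- CD41+ CD45- cells, Hoxb9 stood at 12.1 CPM in anti-Dll4 replicate 3 (others 3.11 to 3.32) and Hoxc9 at 2.22 CPM in IgG replicate 1 (others 5.01 to 5.44).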

How the results depend on the processing

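The 60 calls of a Hox gene in a comparison were recomputed to 1013 values under the alternatives other than the globin covariate, of which 899 kept their direction and side of the threshold, 114 lost the threshold and 0 changed direction; 35 calls held in each of these alternatives run for them. Between Kit+ CD45+ and Kit- CD41+ CD45- cells, 12 of 16 calls held in each of these under anti-Dll4 and 10 of 18 under IgG, and none of them held with the globin level as a covariate. The counts of called members in the comparisons of Kit+ CD45+ cells with Kit- CD41+ CD45- cells and with Kit+ CD45- cells were 16 and 8 under anti-Dll4 and 18 and 8 under IgG, and each was 0 with the globin level as a covariate. Leaving out 1 library gave 13 to 16 and 13 to 16 calls for Kit+ CD45+ against Kit- CD41+ CD45- cells (anti-Dll4 and IgG). Against Kit+ CD45- cells it gave 5 to 9 calls under anti-Dll4 (5 without Kit+ CD45+ anti-Dll4 replicate 4) and 4 to 8 under IgG (4 without Kit+ CD45+ IgG replicate 4 and 5 without Kit+ CD45- IgG replicate 4), and a fit of only the groups compared gave 5 under IgG. For Kit+ CD45- against Kit- CD41+ CD45- cells it gave 2 to 6 under anti-Dll4 and 2 to 8 under IgG, and under anti-Dll4 the count was 2 with no filter on low counts and 2 with only the groups compared. The causes were not tested.

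With the replicate number as a block, the 6 population comparisons had 16, 8 and 3 calls under anti-Dll4 and 17, 8 and 7 under IgG, in the order in which they are described, and 0 calls of an anti-Dll4 effect. Same-numbered libraries correlated in their deviations by -0.147 to 0.197, in no comparison above 0.1 for all 4 pairs. Of the 4 libraries of the first-named population, 3, 3 and 4 correlated best with their own number under anti-Dll4. Under IgG these were 3, 3 and 0, in the same order of comparisons. Between antibodies they were 0 in Kit+ CD45-, 2 in Kit- CD41+ CD45- and 1 in Kit+ CD45+ cells. Library names give the 3 populations of a replicate and antibody a shared first number. Whether such libraries share a source was not settled. The main fit left them unpaired. The replicate block also ended 4 calls, those of Hoxa10 (-1.82) under IgG and Hoxb1 (-3.18) under anti-Dll4 in Kit+ CD45+ against Kit+ CD45- cells, of Hoxa7 (1.10) under IgG in Kit+ CD45+ against Kit- CD41+ CD45- cells, and of Hoxd8 (1.83) under anti-Dll4 in Kit+ CD45- against Kit- CD41+ CD45- cells. Members whose mean was under 1 CPM in every group rest on few reads, and of these only Hoxb8 could be tested.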
